A study of Homo sapiens with 36 samples.

Results

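The cardiac regulators NKX2-5, HAND1, HAND2, MEF2C, ISL1, IRX4, SMYD1, MYOCD and NR2F2 are described here. They were taken by symbol as 9 rows of the 58721 genes in the deposited count matrix. The rule uses no measured value, but the list was drawn up with earlier results of these data known. The RNA came from H1 cells, an established human embryonic stem cell line, labelled wild type or PERK KO. PERK, encoded by EIF2AK3, is a kinase of the endoplasmic reticulum membrane that slows translation under stress. Both genotypes were kept in E8 medium and then moved to a chemically defined cardiac medium that held the WNT activator CHIR99021 at days 0 to 1 and the WNT secretion inhibitor IWP2 at days 2 to 5, with heparin in the first week and insulin later. The 36 libraries form 12 groups of 3: wild type at days 0, 1, 2, 3, 5 and 10, and PERK KO at the same 6 days. The series' design text names other collection days than the sample labels, and the labels were followed. The way PERK was knocked out, the number of clones, any selection of cells and whether the 3 libraries of a group come from separate cultures are not stated in these sources. The p-values therefore measure only the spread between these libraries.

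As background, heart muscle forms from mesoderm in which a small set of transcription factors switch one another on. ISL1, a LIM homeodomain protein, marks cardiac progenitors, and HAND1 and HAND2 are basic helix-loop-helix factors of the early heart fields. NKX2-5, a homeodomain protein, and MEF2C, a MADS-box protein, drive the contractile genes together with GATA4 and TBX5. MYOCD (myocardin) is a coactivator that binds SRF, and SMYD1 is a muscle-specific methyltransferase needed for sarcomere assembly. IRX4 is a homeodomain factor of ventricular muscle, and NR2F2 (COUP-TFII) is a nuclear receptor of atrial muscle that is also made by veins, endoderm and other mesenchyme.

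In GENCODE 29 on GRCh38, 5 of the 9 genes lie on chromosome 5: IRX4 at chr5:1877413-1887236 (minus strand), ISL1 at chr5:51383391-51394738 (plus), MEF2C at chr5:88717117-88904257 (minus), HAND1 at chr5:154474972-154478264 (minus) and NKX2-5 at chr5:173232109-173235357 (minus). SMYD1 is at chr2:88067780-88113387 (plus), HAND2 at chr4:173524969-173530229 (minus), NR2F2 at chr15:96325938-96340263 (plus) and MYOCD at chr17:12665890-12768949 (plus). The values are read counts summed over all exons of a gene. HAND2, MEF2C and MYOCD share exon sequence with antisense genes. Since the strand of the kit is not stated, reads of the shared sequence cannot be told apart.

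Depth ran from 14.0 to 25.9 M counts per library, with a median of 18.2 M. The filter on low counts kept 19772 genes, all 9 members among them. Levels are CPM, read counts relative to library depth after TMM scaling. Differences are log2 fold changes ± an approximate SE from edgeR's quasi-likelihood test with Benjamini-Hochberg adjustment over all genes tested, called at an adjusted p under 0.05. In PERK KO day 0 replicate 2 the counted transcripts were short (2028 nt on average, against 2838 and 2783 nt), and this library differed from the others of its group by a chi-square per degree of freedom of 148 and 137, where they differed from each other by 4.15. Wild-type day 2 replicate 3 differed by 74.5 and 69.7, against 4.05. Other wild-type pairs were also far apart, up to 87.2 at day 3 (replicates 1 and 3) and 53.7 at day 10 (the same numbers). PERK KO day 10 replicate 2 did not stand out over all genes (5.75 and 7.95, against 3.07) but was low for the members. As an alternative this library was left out together with the day 0 and day 2 libraries just named (replicates 2 and 3). EIF2AK3 was not called lower in PERK KO at any day, so the counts do not check the genotype labels. The cardiac label was set against its markers. In wild type the summed level of 11 cardiomyocyte genes, which include TNNT2, MYH6 and TTN, was 53.3 to 68.1 CPM at day 0 and 13009 to 16016 CPM at day 10. In PERK KO the same sum was 69.7 to 95.8 CPM at day 0 and 142 to 486 CPM at day 10.

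In wild type the members came on in steps. HAND1 was the first to rise steeply. It had 0 counts in all libraries at day 0 and 0.155, 0 and 0 CPM at day 1, then 35.8, 37.1 and 54.1 CPM at day 2, a log2 fold change of 9.26 ± 0.67 from day 1 (edgeR adjusted p = 3.61e-12). It stood at 527, 614 and 830 CPM at day 3 and at 770, 615 and 610 CPM at day 5. These 2 groups overlapped, and the day 10 values of 345, 327 and 573 CPM all lay below those of day 5, a difference that was not called (-0.68 ± 0.35, edgeR adjusted p = 0.112). From day 1 to day 2, 3 of 9 members were called higher (HAND1, NKX2-5 and NR2F2), where 23.1% of all genes were, and 1 was called lower (22.5% of all genes). NR2F2 went from 0 counts to 23, at least 8.84-fold higher (edgeR adjusted p = 0.00012). NKX2-5 (3 counts against 18, 6.92-fold, 95% counting interval 2.02 to 36.7, edgeR adjusted p = 0.0489) and IRX4, the lower one (37 counts against 11, -1.52 ± 0.57, edgeR adjusted p = 0.0308), each lost the call on leaving out any of 5 of the 6 libraries.

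From day 2 to day 3 the count rose to 7 of 9 called higher and none lower, where 16.7% of all genes were called higher. ISL1 went from 1.23, 1.06 and 1.51 CPM to 47.3, 43.4 and 50.6 CPM, a rise of 5.21 ± 0.42 on the log2 scale (edgeR adjusted p = 3.37e-11). MYOCD went from 0.223, 0.39 and 0.26 CPM to 80.5, 50.7 and 46.9 CPM (7.64 ± 0.50, edgeR adjusted p = 1.42e-13). In each of them every day 3 library lay far above every day 2 library. HAND2 reached 16.6, 11.3 and 33.5 CPM, SMYD1 9.32, 6.47 and 13.2 CPM and NKX2-5 2.61, 3.16 and 3.09 CPM at day 3, while MEF2C was still at 1.17, 0.518 and 1.12 CPM. The call of MEF2C was lost without wild-type day 2 replicate 1 or 3, and when the fit was limited to the libraries of both days. IRX4 and NR2F2 were not called at this step.

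Between days 3 and 5, 6 of 9 members were called higher (9.48% of all genes) and 1, IRX4, was called lower (8.81% of all genes), from 21 counts to 3. The call of IRX4 was lost without replicate 1 or 2 of either day. MEF2C, the latest of the pan-cardiac factors, moved from about 1 CPM to 54.6, 69.3 and 89.9 CPM (6.23 ± 0.44, edgeR adjusted p = 2.99e-12). NKX2-5 reached 137, 83.4 and 158 CPM (5.42 ± 0.38, edgeR adjusted p = 9.65e-12), and SMYD1 reached 273, 245 and 299 CPM (4.82 ± 0.40, edgeR adjusted p = 5.05e-10). HAND2 was at 225, 203 and 220 CPM. ISL1 (92.7, 96.5 and 109 CPM) and MYOCD (226, 246 and 294 CPM) had their highest level of the time course here. ISL1 gained 1.08 ± 0.32 on the log2 scale at this step (edgeR adjusted p = 0.0174), and the call was lost without wild-type day 3 replicate 2 or day 5 replicate 3.

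By day 10 the members had parted. NKX2-5 rose further to 621, 619 and 975 CPM (2.55 ± 0.32, edgeR adjusted p = 1.37e-07). ISL1 fell to 51.1, 45.6 and 50.8 CPM (-1.02 ± 0.32, edgeR adjusted p = 0.0102), and MYOCD fell to 108, 69.9 and 64.1 CPM (-1.66 ± 0.32, edgeR adjusted p = 7.9e-05). The progenitor factor and the SRF coactivator were thus below their day 5 libraries in every library. IRX4 had 0, 0 and 3 counts at day 5 and 1620, 687 and 2018 counts at day 10, a 1475-fold difference (95% counting interval 504 to 7156). It stood at 72.6, 46.3 and 113 CPM. HAND2 (367, 348 and 482 CPM) was higher than at day 5 by 0.88 ± 0.36 (edgeR adjusted p = 0.0407), a call that was lost on leaving out any 1 of the 6 libraries compared and with DESeq2. MEF2C and SMYD1 were not called. In all 4 members were called higher (24.1% of all genes) and 2 lower (23.9% of all genes) from day 5 to day 10.

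**Figure D1:**
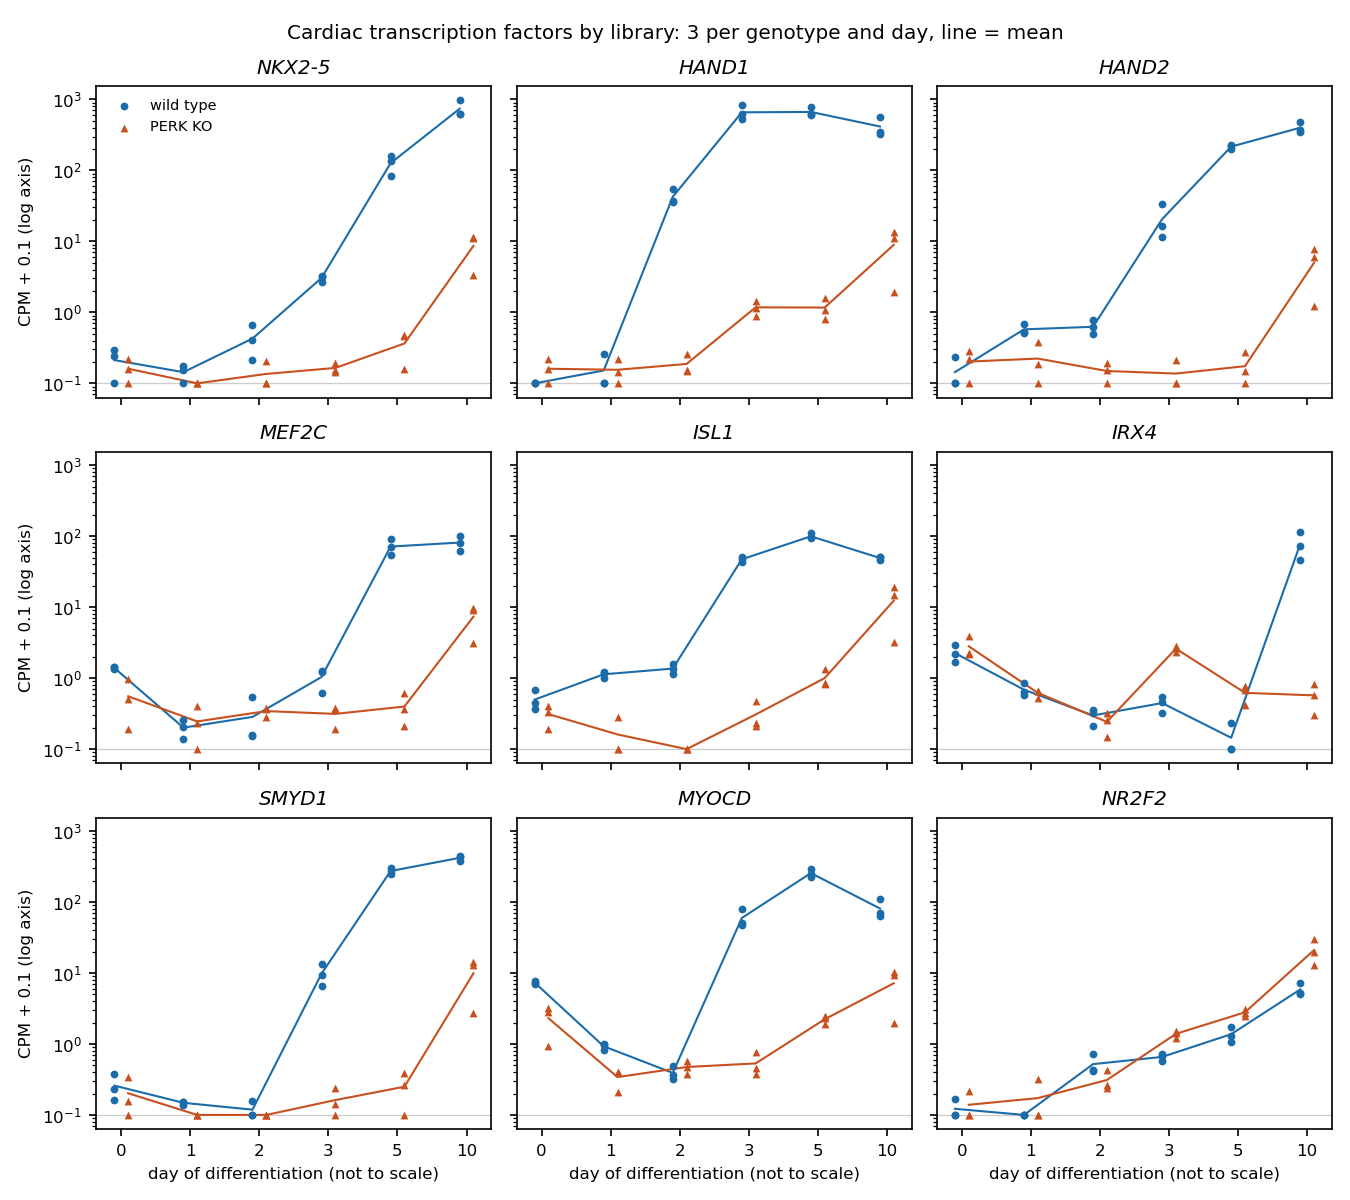
CPM plus 0.1 on a log axis against the day of differentiation, which is spaced evenly and not to scale, for the 9 members. Circles are wild-type and triangles PERK KO libraries (3 per point in time) and lines join the means. In wild type HAND1 climbs at day 2, most others at day 3 and IRX4 at day 10, while in PERK KO most members stay near the floor until day 10.

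MYOCD, MEF2C and IRX4 were already present in undifferentiated cells and went down before they came up. MYOCD was at 6.98, 7.12 and 7.57 CPM in wild type at day 0 and fell to 0.893, 0.734 and 0.852 CPM at day 1 (-3.11 ± 0.43, edgeR adjusted p = 6.66e-07). MEF2C fell from 1.32, 1.23 and 1.33 CPM to between 0.0388 and 0.157 CPM (-3.68 ± 0.74, edgeR adjusted p = 0.000166). IRX4 fell from 1.58, 2.78 and 2.10 CPM to 0.544, 0.472 and 0.746 CPM (-1.87 ± 0.40, edgeR adjusted p = 0.000281). These were the 3 members called lower at that step, where 23.7% of all genes were, and HAND2, with 2 counts at day 0 and 31 at day 1, was called higher (20.9% of all genes), a call lost without day 0 replicate 2 or 3 or day 1 replicate 1. IRX4 and MYOCD also fell from day 0 to day 1 in PERK KO, by 2.32 ± 0.40 and 3.19 ± 0.59 on the log2 scale (edgeR adjusted p = 3.2e-05 and 7.24e-05), the 2 members called lower there against 25.1% of all genes. That count was 4 with DESeq2 and 5 without the 3 libraries named above, with MEF2C and SMYD1 added in both and ISL1 in the second.

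Before differentiation, 1 member differed between the genotypes. MYOCD was lower in PERK KO at day 0 (8.64% of all genes were called lower), at 3.09, 0.827 and 2.69 CPM against 6.98 to 7.57 CPM in wild type (-1.65 ± 0.39, edgeR adjusted p = 0.00287). The lowest value was that of replicate 2, the library with short transcripts. Without it the difference was -1.32 (edgeR adjusted p = 0.0203), and when the fit was limited to the 6 libraries of that day the call was lost (edgeR adjusted p = 0.0827). MEF2C showed a like order, 0.864, 0.0919 and 0.409 CPM against 1.23 to 1.33 CPM, without overlap but not called (-1.39 ± 0.59, edgeR adjusted p = 0.0955). The libraries of the genotypes did not overlap in 2 of 9 members at day 0, against 30% of all genes. In bulk RNA a lower level can mean fewer cells of a type or less RNA per cell, and the 2 cannot be told apart.

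At day 1 ISL1 was the 1 member called lower in PERK KO (7.72% of all genes), and none was called higher. MYOCD was called lower too, making 2, with DESeq2, with no filter, with the libraries of day 1 alone and without the 3 libraries named above. ISL1 had 28, 17 and 21 counts in wild type and 0, 3 and 0 in PERK KO, a 19.7-fold difference (95% counting interval 6.46 to 98.1; edgeR adjusted p = 0.000928). At day 2 it had 22, 19 and 29 counts in wild type and none in PERK KO, at least 24.6-fold lower against a floor of 3 counts over the group (edgeR adjusted p = 1.28e-05). HAND1 had risen in wild type by day 2, and it had 641, 667 and 1041 counts there and 1, 3 and 1 in PERK KO (-8.83 ± 0.66, edgeR adjusted p = 5.05e-12). NKX2-5 (18 counts against 2, 9.49-fold, interval 2.27 to 84.4, edgeR adjusted p = 0.0406) and HAND2 (29 against 3, 10.2-fold, interval 3.16 to 52.3, edgeR adjusted p = 0.025) were called too, but each call was lost on leaving out any 1 of 4 libraries, wild-type replicate 3 and PERK KO replicate 1 being among them for both genes. Thus 4 of 9 members were called lower at day 2, where 21.8% of all genes were. When the fit was limited to the 6 libraries of that day, HAND1 and ISL1 were called, and NKX2-5 and HAND2 did not pass the filter on low counts.

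At days 3 and 5 every member differed, 7 lower and 2 higher in PERK KO. The share of all genes called lower was 23.2% at day 3 and 30.5% at day 5, and that called higher 21.9% and 28.6%. HAND1 stood at 1.37, 0.798 and 1.07 CPM in PERK KO at day 3 and 0.977, 1.51 and 0.715 CPM at day 5, far below wild type. The fitted differences were -9.25 ± 0.53 and -9.28 ± 0.53 (edgeR adjusted p = 7.56e-15 and 5.91e-15). Its partner HAND2 had 0, 0 and 2 counts at day 3 and 3, 0 and 1 at day 5 in PERK KO, against 1183 and 12157 counts over the wild-type libraries. The ratio at day 3 was 614-fold (95% counting interval 170 to 5078) and the fitted difference at day 5 was -11.42 ± 0.68 (edgeR adjusted p = 3.71e-15).

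The other 5 lower members were ISL1, MYOCD, SMYD1, NKX2-5 and MEF2C. ISL1 differed by -7.76 ± 0.52 at day 3 and -6.77 ± 0.45 at day 5 on the log2 scale. For MYOCD, PERK KO libraries read 0.659, 0.355 and 0.28 CPM at day 3 and 2.24, 1.78 and 2.35 CPM at day 5, 0.726% and 0.833% of the wild-type means. SMYD1 had 3, 1 and 0 counts at day 3 and 5, 3 and 0 at day 5, and differed by -7.08 ± 0.67 and -10.81 ± 0.59 (edgeR adjusted p = 9.83e-10 and 1.08e-14). NKX2-5 had 2, 1 and 1 counts at day 3 and 1, 7 and 7 at day 5, and differed by -5.37 ± 0.69 and -8.84 ± 0.50. MEF2C, which had hardly risen in wild type at day 3, differed by -2.12 ± 0.65 there (edgeR adjusted p = 0.00841) and by -7.84 ± 0.50 at day 5 (edgeR adjusted p = 2.32e-14). For all 9 members the 3 libraries of one genotype lay entirely above those of the other at days 3, 5 and 10, against 53.2%, 72.7% and 72.3% of all genes.

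IRX4 and NR2F2 went the other way. IRX4 had 54, 50 and 49 counts in PERK KO at day 3 (2.54, 2.22 and 2.75 CPM) and 10, 7 and 4 in wild type, a difference of 2.80 ± 0.42 (edgeR adjusted p = 1.53e-06). This followed a rise within PERK KO from 0.219, 0.161 and 0.047 CPM at day 2 (4.11 ± 0.50, edgeR adjusted p = 1.86e-07), and it was over by day 5, at 0.575, 0.324 and 0.664 CPM (-2.24 ± 0.40 from day 3, edgeR adjusted p = 0.00018). The day 3 level overlapped that of undifferentiated PERK KO cells (2.10, 3.86 and 2.16 CPM). At day 5 the 29 counts in PERK KO faced 3 in wild type, a 9.81-fold difference (95% counting interval 3.04 to 50.3; edgeR adjusted p = 0.000854). NR2F2 was at 1.41, 1.33 and 1.12 CPM in PERK KO at day 3 against 0.585, 0.466 and 0.617 CPM in wild type (1.21 ± 0.42, edgeR adjusted p = 0.0208). At day 5 it was at 2.41, 2.65 and 3.01 CPM against 0.95, 1.66 and 1.2 CPM (1.08 ± 0.36, edgeR adjusted p = 0.0125). The day 3 call of NR2F2 was lost without wild-type replicate 2 or PERK KO replicate 1, and the day 5 call without wild-type replicate 1.

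**Figure D2:**
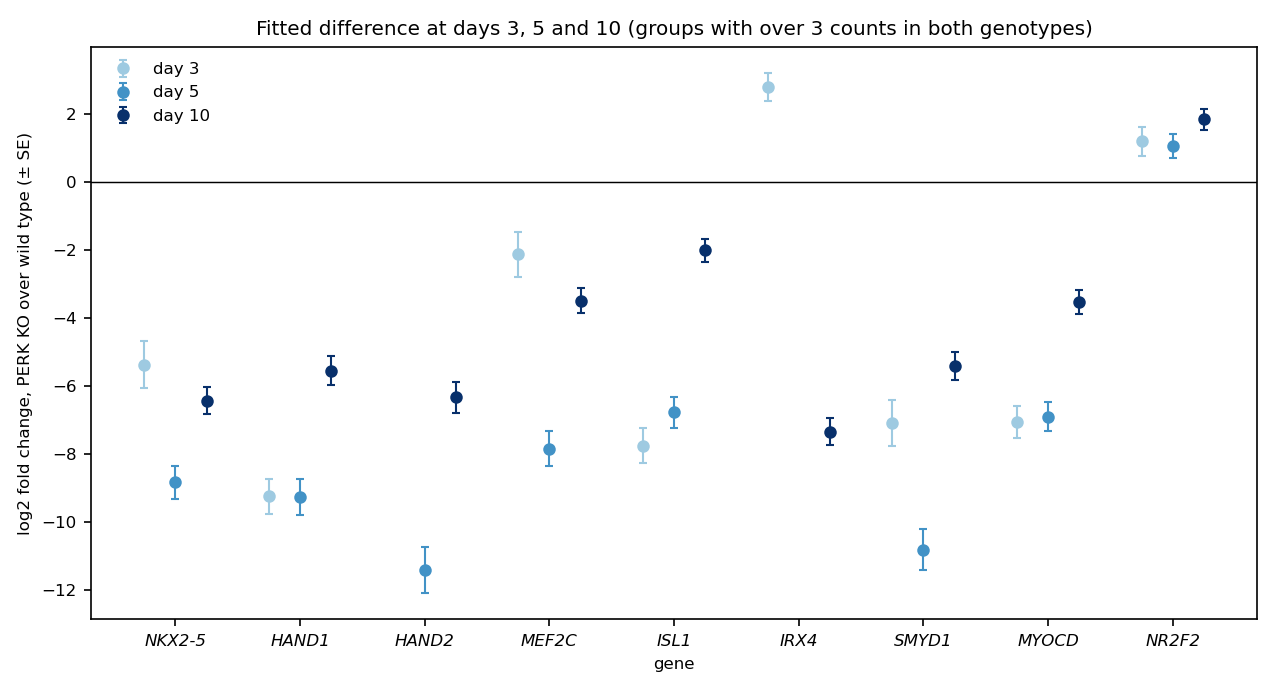
Fitted log2 fold change of PERK KO over wild type, with its approximate SE as bars, for the 9 members at days 3, 5 and 10. HAND2 at day 3 and IRX4 at day 5 are left out since 1 genotype had 3 counts or fewer. NKX2-5, HAND1, HAND2, MEF2C, ISL1, SMYD1 and MYOCD sit below 0 and nearer to it at day 10 than at day 5, NR2F2 sits above 0 at each day, and IRX4 goes from above to below.

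At day 10 PERK KO carried some RNA of every member, yet 8 of 9 were lower than in wild type (34% of all genes were called lower) and 1, NR2F2, was higher (33.2% of all genes were called higher). NKX2-5 read 10.96, 3.26 and 11.4 CPM, 1.16% of the wild-type mean (-6.43 ± 0.39, edgeR adjusted p = 2.15e-14). HAND2 read 5.87, 1.14 and 7.67 CPM, 1.23% of wild type (-6.33 ± 0.46, edgeR adjusted p = 3.29e-13), and HAND1 11.01, 1.87 and 13.6 CPM, 2.13% (-5.55 ± 0.43, edgeR adjusted p = 4.92e-12). SMYD1 read 14.0, 2.64 and 12.8 CPM against 382, 424 and 449 CPM, 2.34% (-5.41 ± 0.41, edgeR adjusted p = 6.9e-12). The gap was smaller for MYOCD (10.1, 1.87 and 9.18 CPM, 8.73%, -3.51 ± 0.36), MEF2C (9.65, 3.01 and 9.10 CPM against 101, 80.1 and 62.0 CPM, 8.94%, -3.48 ± 0.36) and ISL1 (14.5, 3.11 and 19.1 CPM, 24.9%, edgeR adjusted p = 7.53e-06). The closest libraries of the genotypes were still 2.39-fold apart for ISL1 and 54.1-fold apart for NKX2-5.

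IRX4 was the member furthest below wild type in share at day 10, with 14, 4 and 11 counts in PERK KO against 1620, 687 and 2018, or 0.611% of the wild-type mean (-7.34 ± 0.38, edgeR adjusted p = 2.53e-16). NR2F2 read 19.6, 12.95 and 30.2 CPM in PERK KO and 7.17, 4.99 and 5.09 CPM in wild type (1.86 ± 0.31, edgeR adjusted p = 6.91e-06). It was the 1 member with more RNA in PERK KO at the end of the time course.

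PERK KO day 10 replicate 2 was the lowest of its group for all 9 members. It held 15.1% to 34.3% of the mean of the other 2 libraries for the 8 lower members and 52.1% for NR2F2. The same library was low for the summed cardiomyocyte markers, at 142 CPM against 462 and 486 CPM, and for endothelial markers (44.0 against 67.2 and 62.0 CPM) and endoderm markers (318 against 522 and 535 CPM). It was the lowest too for amnion (97.2 against 139 and 186 CPM) and fibroblast and epicardial markers (134 against 164 and 178 CPM). The same held for neuron (58.5 against 68.7 and 74.8 CPM) and smooth muscle markers (87.6 against 94.4 and 101 CPM). It was not low for neuroectoderm (1052 against 877 and 834 CPM), pluripotency (2070 against 2039 and 2031 CPM) or skeletal muscle markers (19.0 against 17.8 and 13.7 CPM). Without it, all 9 calls held, and the 8 lower members stood at 0.782% (IRX4) to 34.2% (ISL1) of wild type. Their fitted differences then ran from -7.00 for IRX4 to -1.54 for ISL1.

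**Figure D3:**
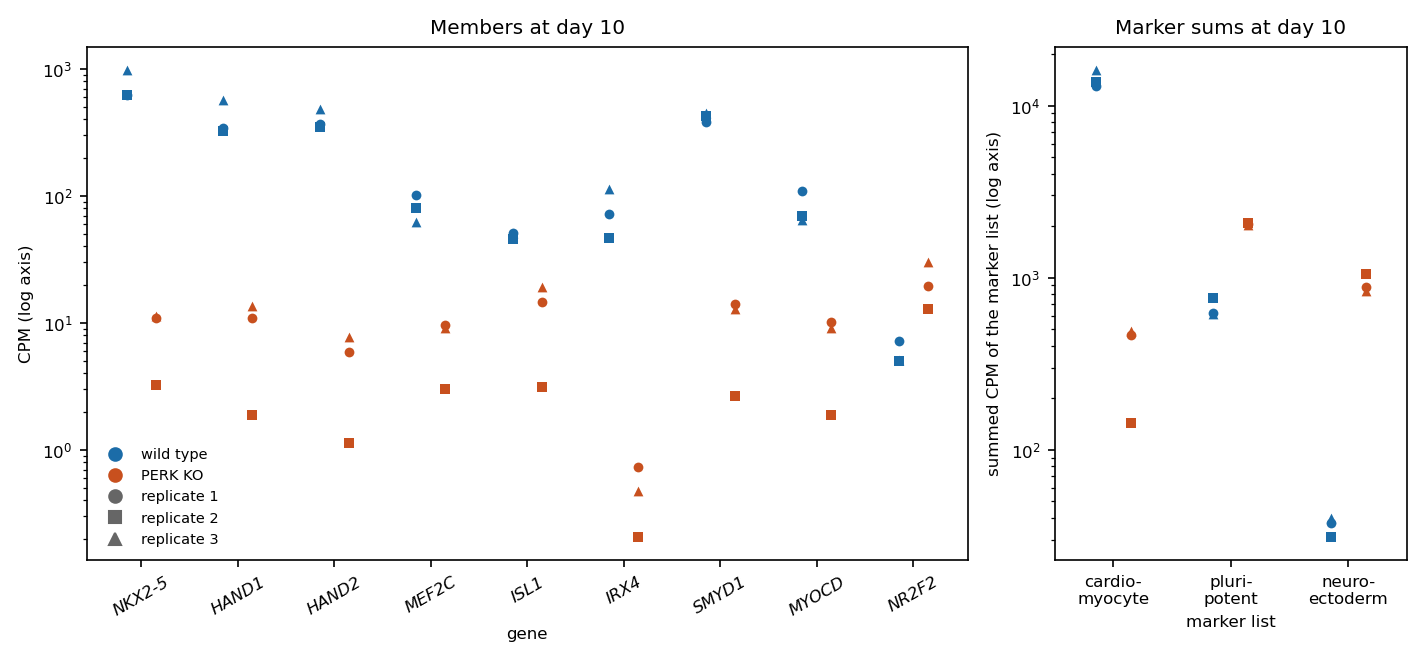
Left, CPM of each member in the 6 libraries of day 10 on a log axis, with marker shape for the replicate. Right, the summed CPM of the cardiomyocyte, pluripotency and neuroectoderm marker lists in the same libraries. Replicate 2 (squares) is the lowest of the 3 PERK KO libraries for all 9 members and for the cardiomyocyte sum (142 CPM), and not for the other sums shown.

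Other cell types also differed between the genotypes at day 10, and their part in the members' levels was not tested. A sum follows its most abundant genes, so the genes called higher or lower in PERK KO are given beside it. Over all genes 33.2% were called higher and 34% lower. Over 7 neuroectoderm markers, which include PAX6 and SOX1, the sum was 834 to 1052 CPM in PERK KO and 31.2 to 39.9 CPM in wild type, where SOX1 was at 0. All 7 were called higher. The 8 pluripotency markers summed to 2031 to 2070 CPM in PERK KO and 615 to 766 CPM in wild type, with 5 called higher and 2 lower. The 7 amnion and trophoblast markers, a setting in which ISL1 and HAND1 are also made, summed to 97.2 to 186 CPM and 46.2 to 51.5 CPM. Here 5 were called higher and 1 lower. The 9 neuron markers, relevant since motor neurons make ISL1, summed to 58.5 to 74.8 CPM and 29.1 to 32.1 CPM. Of 6 tested, 2 were called higher and 1 lower. Endothelial markers (7 genes, and MEF2C and NR2F2 are also endothelial) summed to 44.0 to 67.2 CPM in PERK KO and 581 to 700 CPM in wild type. All 7 were called lower. Mesenchyme and endoderm, which make NR2F2, were at lower sums in PERK KO: the 7 fibroblast and epicardial markers at 134 to 178 against 2182 to 3576 CPM, and the 6 endoderm markers at 318 to 535 against 1388 to 2118 CPM. Of 5 fibroblast and epicardial markers tested, 4 were called lower and 1 higher. Of the 6 endoderm markers, 5 were called lower and 1 higher. The 4 smooth muscle markers, relevant to MYOCD, summed to 87.6 to 101 and 261 to 350 CPM, with 3 called lower and 1 higher. The 5 skeletal muscle regulators, relevant to SMYD1 and MEF2C, summed to 13.7 to 19.0 CPM in PERK KO and 0.472 to 0.838 CPM in wild type. MYOD1 was at 0 in both genotypes and MYF5 at 0 in PERK KO. Only 2 of the 5, PAX3 and PAX7, passed the filter on low counts, and these 2 were called higher. MYOD1, MYOG and MYF5 were not tested.

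Within PERK KO, IRX4 was the 1 member called from day 1 to day 2, and it was lower (6.13% of all genes; -1.88 ± 0.63, edgeR adjusted p = 0.046), and the call was lost on leaving out any of the 6 libraries. From day 2 to day 3, 4 of 9 were called higher, where 13.5% of all genes were, and none lower. Beside IRX4 these were NR2F2 (2.60 ± 0.50, edgeR adjusted p = 0.000285), HAND1 (5 counts to 66, 3.54 ± 0.91, edgeR adjusted p = 0.00464) and ISL1 (0 counts to 13, at least 4.09-fold, edgeR adjusted p = 0.0428). From day 3 to day 5, MYOCD (2.27 ± 0.52, edgeR adjusted p = 0.00291), ISL1 (2.06 ± 0.67, edgeR adjusted p = 0.0327) and NR2F2 (1.06 ± 0.36, edgeR adjusted p = 0.0424) were called higher, against 7.45% of all genes, and IRX4 lower, against 8.86%. The ISL1 calls were each lost on leaving out any of 4 single libraries (day 2 replicates 1 to 3 and day 3 replicate 1 at the first step, replicates 2 and 3 of day 3 and 1 and 2 of day 5 at the second), and the last NR2F2 call on leaving out any of 6.

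The steep rise within PERK KO came last. From day 5 to day 10, 8 of 9 members were called higher in PERK KO (24.1% of all genes) and none lower, IRX4 being the exception at 29 counts on both days. SMYD1 went from 0.287, 0.162 and 0 CPM to between 2.64 and 14.0 CPM (6.02 ± 0.61, edgeR adjusted p = 5.37e-09), HAND2 rose by 5.97 ± 0.76, NKX2-5 by 4.96 ± 0.50 and MEF2C by 4.54 ± 0.51 on the log2 scale. MYOCD rose least (1.73 ± 0.38, edgeR adjusted p = 0.000406), and its day 10 libraries overlapped those of day 5. The difference between the genotypes in this change was itself tested. It was called for 8 of 9 members (38.5% of all genes), all but NR2F2 (0.78 ± 0.48, edgeR adjusted p = 0.206). The log2 steps of 7 were larger in PERK KO, by 2.41 ± 0.64 for NKX2-5 to 5.40 ± 0.73 for SMYD1. That of IRX4 was smaller. HAND2 and SMYD1 had only 4 and 8 counts in PERK KO at day 5, so the sizes of their steps are uncertain. The day 5 libraries enter both this test and the day 5 comparison.

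The level reached in PERK KO at day 10 can be set beside the wild-type course. NKX2-5 (8.55 ± 4.58 CPM, SD, n = 3) lay between wild-type days 3 and 5 without overlap with either. HAND1 (8.83 ± 6.17 CPM) lay between days 1 and 2, HAND2 (4.90 ± 3.37 CPM) and ISL1 (12.2 ± 8.23 CPM) between days 2 and 3, and MEF2C (7.25 ± 3.69 CPM) between days 3 and 5. SMYD1 (9.80 ± 6.23 CPM) overlapped wild-type day 3 (9.68 ± 3.40 CPM). MYOCD (7.06 ± 4.52 CPM) overlapped undifferentiated wild-type cells (7.22 ± 0.308 CPM). Since wild-type MYOCD fell and then rose, its PERK KO level also lay between days 2 and 3, without overlap with either. IRX4 (0.472 ± 0.263 CPM) overlapped wild-type days 1, 2 and 3. NR2F2 (20.9 ± 8.69 CPM) lay above every wild-type day. So the members did not match 1 common day of the wild-type series.

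TPM values, which are scaled per transcript length and depth, allow the genes to be ranked. At wild-type day 3 HAND1 (583 ± 64.7 TPM) stood above ISL1 (28.5 ± 3.11), MYOCD (16.0 ± 4.99) and HAND2 (11.2 ± 4.73), and MYOCD and HAND2 overlapped. At day 5 HAND1 (563 ± 37.8 TPM) still led, and NKX2-5 (117 ± 34.6) and HAND2 (110 ± 4.32) overlapped behind it. At day 10 NKX2-5 had passed HAND1, at 680 ± 136 against 347 ± 92.8 TPM, and HAND2 (209 ± 24.1) and SMYD1 (140 ± 6.38) followed, each apart from the next. IRX4 (46.6 ± 18.1), MEF2C (39.7 ± 13.1), ISL1 (28.2 ± 4.30) and MYOCD (26.7 ± 7.44) formed a lower group whose neighbours overlapped, and NR2F2 was last at 2.11 ± 0.930 TPM. In PERK KO at day 10 no neighbours in the order were apart: NKX2-5 (10.3 ± 5.82 TPM), HAND1 (9.33 ± 6.60), NR2F2 (8.80 ± 3.94) and ISL1 (8.75 ± 5.95) came first, and IRX4 (0.407 ± 0.116) was last. All of these are means with SD over 3 libraries.

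**Figure D4:**
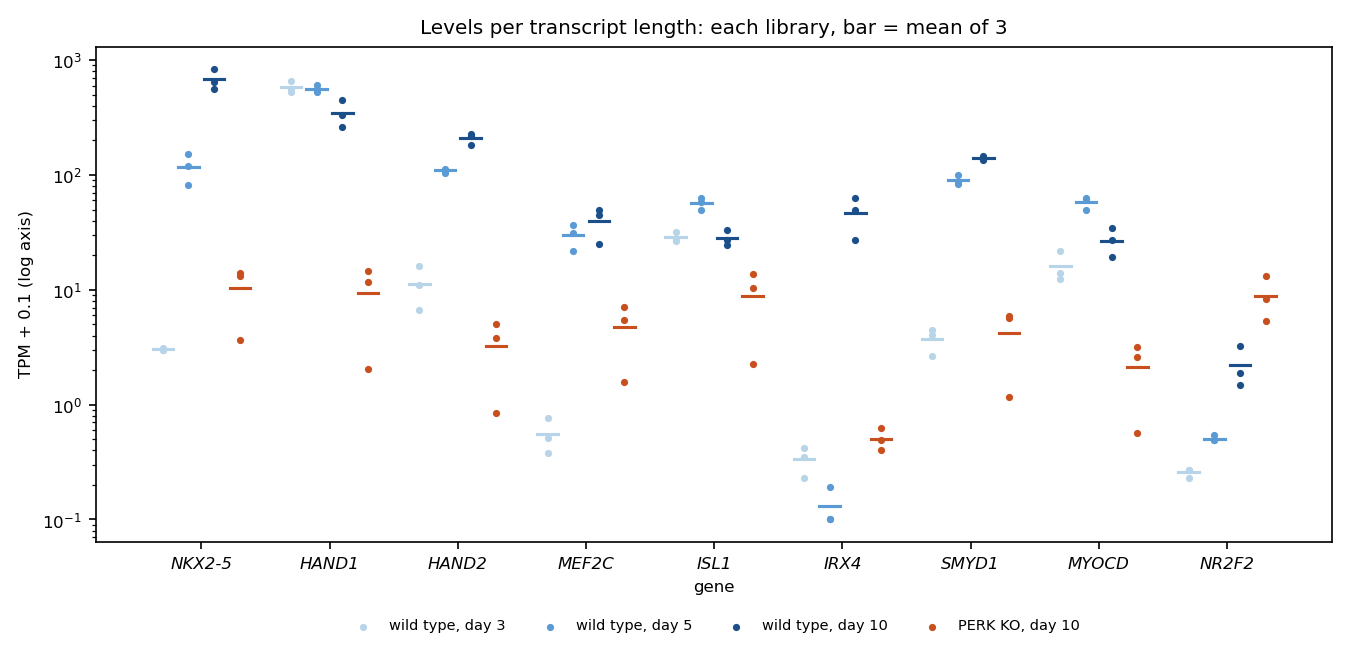
TPM plus 0.1 on a log axis for each member in wild type at days 3, 5 and 10 and in PERK KO at day 10, with each library as a point and the mean of 3 as a bar. HAND1 leads in wild type at days 3 and 5 and NKX2-5 at day 10 (680 TPM), while in PERK KO 8 members lie between 2.01 and 10.3 TPM on average and IRX4 at 0.407 TPM.

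IRX4 is used as a marker of the ventricle and NR2F2 of the atrium, and other chamber genes were counted beside them. Of 6 ventricular genes tested (a list of 7 that holds IRX4), 5 were lower and 1 higher at day 10, with a median log2 fold change of -2.55, and of 11 atrial genes (a list of 12 that holds NR2F2), 6 were lower and 2 higher, with a median of -1.90. The median of all genes tested was 0.00, and 34% of them were called lower and 33.2% higher. MYL2, the ventricular light chain, was almost absent from both genotypes (2 counts in wild type and none in PERK KO at day 10). MYH6, the atrial and early myosin, was at 7537 ± 996 CPM in wild type and 145 ± 88.8 CPM in PERK KO (-5.70 ± 0.39, edgeR adjusted p = 1.34e-13). NR2F1, the closest paralog of NR2F2, was at 1.25 ± 0.549 and 1.56 ± 0.490 CPM and was not called (0.34 ± 0.44, edgeR adjusted p = 0.512), although it had been lower in PERK KO at day 3 (2 counts against 347).

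Factors that act with the members were counted in the same comparisons. Of 28 partner genes tested (GATA, T-box, HEY, class II histone deacetylases and others), 18 were lower and 2 higher at day 3, 20 and 3 at day 5, and 19 and 5 at day 10, with median log2 fold changes of -2.77, -1.73 and -1.84. Of all genes, 23.2%, 30.5% and 34% were called lower at these days and 21.9%, 28.6% and 33.2% higher. At day 10 GATA4, the zinc finger partner of NKX2-5, was at 11.8 ± 4.82 against 514 ± 170 CPM, TBX20 at 2.18 ± 1.34 against 149 ± 35.6 CPM and TBX5 at 0.433 ± 0.364 against 61.1 ± 14.7 CPM (edgeR adjusted p = 3.48e-16, 3.67e-14 and 3.07e-11). SRF, the DNA-binding partner of MYOCD, moved far less: 0.28 ± 0.14 at day 3 (edgeR adjusted p = 0.116), -0.91 ± 0.14 at day 5 and -0.49 ± 0.14 at day 10 (edgeR adjusted p = 2.61e-06 and 0.00325).

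Paralogs, genes of the same families, were also counted. Of 22 tested, 9 were lower and 2 higher at day 3, 12 and 3 at day 5, and 14 and 4 at day 10. The median log2 fold changes were -0.48, -1.18 and -0.89. Of all genes, 23.2%, 30.5% and 34% were called lower at these days and 21.9%, 28.6% and 33.2% higher. MEF2A and MEF2D, made in many tissues, differed by -1.39 ± 0.25 and -2.72 ± 0.17 at day 10, next to -3.48 for MEF2C. IRX3 differed by -5.12 ± 0.25 at day 3, the day at which IRX4 was higher in PERK KO, by -1.99 ± 0.22 at day 5 and by -2.46 ± 0.23 at day 10. IRX5 was not called at day 5 (-0.02 ± 0.19, edgeR adjusted p = 0.932) and differed by -0.80 ± 0.20 at day 10.

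Genes known as targets of these factors, such as those of the contractile apparatus, were counted likewise. Of 29 tested, 24 were lower and 3 higher at day 10 (median -3.18), and 23 and 2 at day 5 (median -3.87), beside 34% lower and 33.2% higher of all genes at day 10 and 30.5% and 28.6% at day 5. TNNT2 (cardiac troponin T) was at 23.8 ± 12.8 against 1837 ± 169 CPM (-6.27 ± 0.40, edgeR adjusted p = 2.79e-14) and ACTC1 (cardiac actin) at 64.0 ± 26.9 against 1151 ± 182 CPM (-4.17 ± 0.29, edgeR adjusted p = 2.1e-13). The natriuretic peptide genes differed from these: NPPA, low in both genotypes, was not called (-0.32 ± 0.43, edgeR adjusted p = 0.522), and NPPB was higher in PERK KO, at 10.8 ± 1.09 against 6.42 ± 2.26 CPM (0.75 ± 0.29, edgeR adjusted p = 0.0271). Of the 5 genes listed as acting with SMYD1, 3 were lower and 2 higher at day 10, where the shares of all genes were 34% and 33.2%. UNC45B, a myosin chaperone, was at 5.03 ± 2.97 against 272 ± 25.4 CPM, and NACA, whose muscle form SMYD1 binds, was at a higher gene-level count in PERK KO (0.81 ± 0.15, edgeR adjusted p = 2.27e-05).

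Across the 36 libraries the members fell into patterns of different likeness, measured as Pearson's r of log2 CPM; groups of libraries and the time course are shared, so these are descriptions. SMYD1 was most like NKX2-5 (r = 0.97) and HAND2 (0.96), and HAND2 was also close to NKX2-5 (0.95). IRX4 had r of 0.05 to 0.33 with the other members, and NR2F2 0.19 to 0.65. Among the 14528 genes with enough signal, those most like SMYD1 were UNC45B, MYH6 and TNNI1 (0.98 each), and those most like NKX2-5 were XIRP1, COL3A1 and MYH6 (0.98 each). HAND1 was most like SMAD6 (0.98), LRRTM1 and GATA2 (0.97 each), HAND2 most like EFNA1, TRIM55 and BMP5 (0.97 each), and ISL1 most like AL365205.1, GATA2-AS1 (0.96 each) and DAB2 (0.95). For MEF2C they were MIR1-1HG-AS1 (0.95), LDB3 and AC010980.2 (0.94 each), and for MYOCD COL1A1 (0.96), AL355987.4 and DUSP27 (0.94 each). IRX4 was nearest to FHL2 (0.93), RGS14 (0.90) and REEP6 (0.86), and NR2F2 to MAF (0.92), PALLD (0.91) and STOM (0.90).

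The upstream sequence is shown for the 4 members with a single RefSeq start, a choice that did not use their expression. It comes from RefSeq windows on GRCh38.p14, cut at the first start in RefSeq or GENCODE. Each stretch is written 5′ to 3′ on the gene's strand. Capitals mark matches on either strand to 4 motifs. For GATA factors it was AGATAA, with TGATAA as the other form. For the E-box of HAND factors it was CANNTG. The letters searched for NKX2-5 were AAGTG. Those for TCF and LEF were CTTTG. The first is chr2:88067575-88067779 (plus), the second chr4:173530230-173530479 (minus), the third chr5:51383198-51383390 (plus) and the fourth chr5:154478265-154478477 (minus).
SMYD1: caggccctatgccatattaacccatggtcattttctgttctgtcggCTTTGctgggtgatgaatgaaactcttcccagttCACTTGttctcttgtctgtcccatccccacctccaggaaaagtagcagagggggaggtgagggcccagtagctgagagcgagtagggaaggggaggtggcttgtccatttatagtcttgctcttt
HAND2: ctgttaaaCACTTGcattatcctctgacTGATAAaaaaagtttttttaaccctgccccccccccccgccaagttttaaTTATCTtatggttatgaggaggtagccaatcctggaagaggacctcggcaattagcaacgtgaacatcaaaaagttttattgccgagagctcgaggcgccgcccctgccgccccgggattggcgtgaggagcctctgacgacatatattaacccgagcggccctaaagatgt
ISL1: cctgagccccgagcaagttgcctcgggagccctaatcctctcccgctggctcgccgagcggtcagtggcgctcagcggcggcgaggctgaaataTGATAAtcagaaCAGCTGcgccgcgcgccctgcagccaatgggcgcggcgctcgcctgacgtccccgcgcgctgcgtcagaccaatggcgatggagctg
HAND1: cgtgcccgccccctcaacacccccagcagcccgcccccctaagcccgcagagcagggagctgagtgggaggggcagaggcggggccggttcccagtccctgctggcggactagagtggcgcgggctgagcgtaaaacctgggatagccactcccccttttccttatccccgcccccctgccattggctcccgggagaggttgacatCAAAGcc
In SMYD1 and HAND2 the match to AAGTG lies inside the E-box, as CACTTG. HAND2 holds 2 GATA matches and ISL1 1 in the stretch shown, while HAND1 holds a single CTTTG match and SMYD1 another.

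A RefSeq window of 300 bases was found for 7 of the 9 members, with 16 windows in all; NKX2-5 and MYOCD had none. Over full windows the GATA motif was found in 5 of the 16 (3 members), CANNTG in 14 (6 members), AAGTG in 10 (4 members) and CTTTG in 4 (4 members). MEF2C has more windows than any other member, and each of them holds AAGTG, so counts over windows weigh MEF2C most. Only IRX4 has windows that overlap. Of all 35116 windows of this length, 16.3% hold the GATA motif, 68.7% CANNTG, 43.1% AAGTG and 47.5% CTTTG. The CArG box bound by SRF (1.29% of all windows) and the MEF2 site (1.86%) were found in none of the 16. A match describes letters and not binding.

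RSEM's expressed transcript length weights a gene's isoforms by their share. It was constant at 1738 nt for HAND1, which has a single length in every library with 20 or more counts, and for SMYD1 the genotypes overlapped at day 10 (3945 ± 36.5 nt in wild type and 3959 ± 98.0 nt in PERK KO), with wild-type day 3 lower at 3720 ± 35.7 nt (3679 to 3745 nt). MYOCD varied more: 5194 ± 551 nt in wild type at day 3 (4683 to 5777 nt), 5727 ± 513 nt in wild type at day 5 (5410 to 6318 nt), 4044 ± 690 nt at day 10 (3347 to 4727 nt) and 5917 ± 514 nt in PERK KO at day 10 (5339 to 6325 nt). Wild-type day 10 thus lay below wild-type day 5 and PERK KO day 10 in every library and overlapped wild-type day 3. The PERK KO day 10 lengths rest on 193, 36 and 213 MYOCD counts, against 2420, 1036 and 1147 in wild type. MYOCD ranged from 6172 to 8193 nt in wild type at day 0 and from 5196 to 8466 nt in PERK KO at day 5. No test was run on these lengths.

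**Figure D5:**
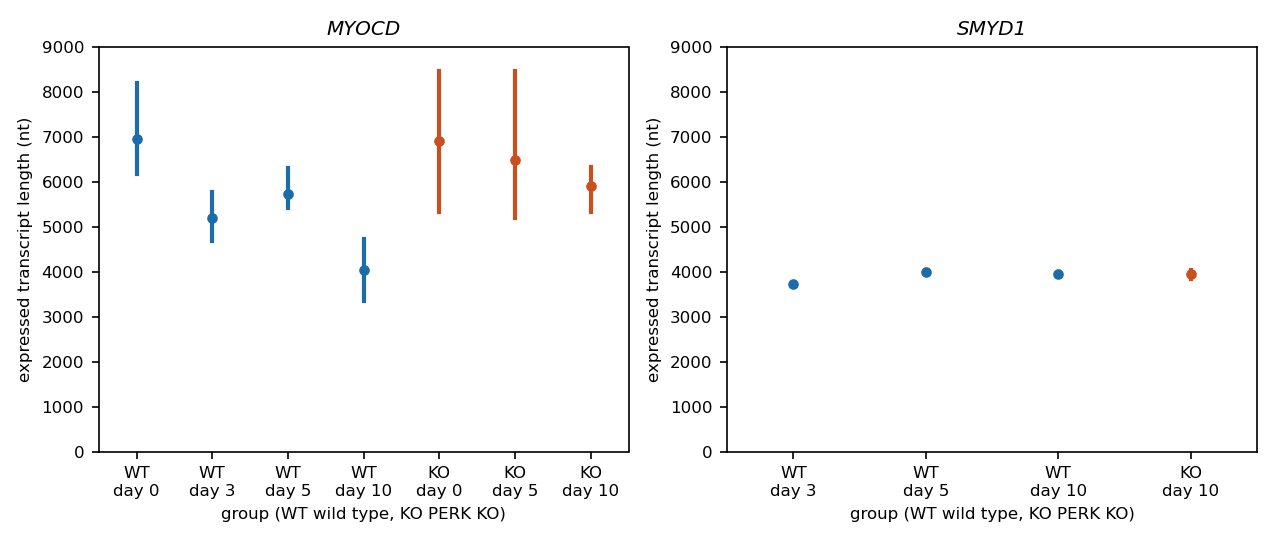
Expressed transcript length in nucleotides for MYOCD (left) and SMYD1 (right) in groups where at least 2 libraries had 20 or more counts, with the mean as a point and the lowest to highest library as a bar. MYOCD in wild type at day 10 (3347 to 4727 nt) lies below wild-type day 5 and PERK KO day 10 and overlaps wild-type day 3. SMYD1 is lowest in wild type at day 3 (3679 to 3745 nt).

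Of 4 antisense partners in the files, 2 could be tested, and both were lower in PERK KO at day 10. The 2, HAND2-AS1 and MEF2C-AS1, share exon sequence with HAND2 and MEF2C. Reads of that shared sequence cannot be told apart, so these are not separate results. HAND2-AS1, which overlaps HAND2, was at 61.9 ± 6.53 CPM in wild type and 1.79 ± 1.24 CPM in PERK KO at day 10 (-5.09 ± 0.43, edgeR adjusted p = 1.05e-11), and MEF2C-AS1 had 50 against 8 counts (-2.75 ± 0.74, edgeR adjusted p = 0.00191). NR2F2-AS1 shares no exon sequence with NR2F2. It did not pass the filter on low counts, and had 32 counts in PERK KO and 3 in wild type. The 5 members on chromosome 5 were all lower in PERK KO at day 10. Over the 910 genes of that chromosome tested, the median log2 fold change was 0.33, above the 0.00 of all genes, and 28.6% of them were called lower, against 34% of all genes. The chromosome's median was 0.25 at days 2 and 5. Other chromosomes that hold members had day 10 medians of 0.38 (chromosome 4), 0.28 (chromosome 2), 0.00 (chromosome 15) and -0.26 (chromosome 17).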

How the data were processed

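RNA-seq of 36 libraries (2 genotypes, 6 days, 3 replicates) was used. Per the file headers, the deposited values are RSEM expected counts, TPM and expressed transcript lengths per gene; the authors' count matrix holds the same expected counts. Per the submitters' processing notes, CASAVA, FastQC, STAR and RSEM with GRCh38 were used; the strand setting and software versions are not given here. Expected counts were rounded (6.53% to 9.43% of values per library were fractional), filtered with filterByExpr (19772 genes), scaled with TMM and fitted as 12 groups with edgeR 4.0.16 (limma 3.58.1, R 4.3.3; 24 residual degrees of freedom, biological coefficient of variation 18.7%), all genes sharing 1 adjustment per contrast. The SE is |log2 fold change| over the square root of F, and understates the error at few counts. With 3 counts or fewer in a group, ratios carry a 95% counting interval, or a floor of 3 counts where the group had none; both cover counting error only. DESeq2 1.42.0 was an alternative; the script was tested on simulated data; figures and tables used matplotlib 3.10.9, numpy 2.4.6 and pandas 2.3.3 under Python 3.11.15. All 9 members were named in each comparison, other genes by fixed lists, and like patterns as the 3 highest r among genes with a group mean over 5 CPM. The members and lists were chosen with earlier results of these data known. MYOCD-AS1, ISL1-DT, HAND1-AS and SMYD1-AS, also on the antisense list, were not found by symbol among the deposited genes.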

Additional observations from a re-analysis of the deposited data

Results flagged for a closer look

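The change from day 5 to day 10 differed between the genotypes, by the test of the difference itself (edgeR's quasi-likelihood test on all 36 libraries), for 8 of the 9 members, where 38.5% of all genes were called. On the log2 scale the step was larger in PERK KO by 2.41 for NKX2-5 (edgeR adjusted p = 0.0033), 3.73 for HAND1 (9.16e-06), 5.08 for HAND2 (4.3e-05), 4.36 for MEF2C (1.17e-06), 4.77 for ISL1 (3.21e-08), 5.40 for SMYD1 (1.22e-06) and 3.39 for MYOCD (2.3e-06). For IRX4 the value was -10.49 (7.86e-12), and it rests on 3 wild-type counts at day 5, so its size depends on the prior count. In PERK KO at day 5, HAND2 had 4 counts, SMYD1 8, NKX2-5 15 and MEF2C 17, so the sizes of their differences are uncertain too. NKX2-5 and HAND2 rose in both genotypes, but the wild-type call of HAND2 was lost on leaving out any 1 library compared and with DESeq2. In mean CPM, NKX2-5 went from 0.264 to 8.55 in PERK KO and from 126 to 738 in wild type. HAND2 went from 0.0745 to 4.90 and from 216 to 399 CPM. HAND1, MEF2C and SMYD1 rose in PERK KO and were not called in wild type. ISL1 and MYOCD fell in wild type (by 1.02 and 1.66) while they rose in PERK KO (3.76 and 1.73).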

How the results depend on the processing

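Of 88 called differences of single members, all kept their direction under every alternative run; 1 lost its call with DESeq2, 1 with RLE scaling, 2 of the 78 that could be fitted with only the compared libraries, and 58 of 576 fits that left out 1 library. No call was lost with no filter, a stricter filter, the series matrix, the replicate block or without 3 libraries together (PERK KO day 0 replicate 2, wild-type day 2 replicate 3 and PERK KO day 10 replicate 2, chosen after seeing the data). Counts of members that moved were these. For PERK KO against wild type, lower at day 0: 1 became 2 (no filter, DESeq2) and 0 (compared libraries only); lower at day 1: 1 became 2 (no filter, DESeq2, compared libraries only, without the 3 libraries); lower at day 2: 4 became 2, and higher at day 5: 2 became 1 (compared libraries only). In wild type, higher from day 0 to 1: 1 became 2 (no filter, DESeq2, without the 3 libraries); from day 1 to 2, higher 3 became 1 (compared libraries only) and lower 1 became 2 (no filter, replicate block, DESeq2, without the 3 libraries); lower from day 3 to 5: 1 became 0 (compared libraries only). In PERK KO, lower from day 0 to 1: 2 became 4 (DESeq2) and 5 (without the 3 libraries); lower from day 1 to 2: 1 became 0 (compared libraries only). Genes called at day 0 went from 4177 to 304, and at day 1 from 3130 to 7356, with the compared libraries only, and at day 1 to 4909 without the 3 libraries; the cause was not tested. Of the members that dropped out with the compared libraries only, MYOCD at day 0 was tested and not called, and the others listed did not pass the filter.

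Leaving out 1 library gave, for PERK KO against wild type, 1 to 2 members lower at day 0, 2 to 4 lower at day 2, and 1 to 2 higher at days 3 and 5. In wild type it gave 0 to 1 higher from day 0 to 1, 0 to 1 lower from day 1 to 2 and 0 to 1 lower from day 3 to 5. In PERK KO it gave 0 to 1 higher and 0 to 1 lower from day 1 to 2, and 1 to 3 higher from day 3 to 5. A lone pair of libraries is assumed to vary like the other groups.

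Same-numbered replicates were not paired: of 18 pairs, 3 had correlated deviations over 0.1 (r from -0.132 to 0.316). The replicate block moved the genes called at day 10 from 13298 to 13350 and the members lower from day 1 to 2 in wild type from 1 to 2. Members with few counts, at days 0 to 2 above all, limit what the depth can show.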

Other observations

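MRTFA, the widely made relative of MYOCD that also binds SRF, did not follow MYOCD before day 10. It was at 46.1 CPM in PERK KO and 39.4 CPM in wild type at day 3 (0.23 ± 0.18, edgeR adjusted p = 0.325) and at 50.6 and 55.3 CPM at day 5 (-0.13 ± 0.18, edgeR adjusted p = 0.554). At day 10 it was lower in PERK KO, at 37.3 against 131 CPM (-1.81 ± 0.18, edgeR adjusted p = 6.26e-10). FGF10, a known target of ISL1 in heart progenitors, was at 23.5 CPM in wild type and 0.56 CPM in PERK KO at day 3 and at 35.3 and 2.94 CPM at day 10 (-5.36 ± 0.42 and -3.57 ± 0.35, edgeR adjusted p = 8.77e-12 and 6.73e-10).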
